A study of Danio rerio with 6 samples.

Results

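Proneural genes were read from RNA of zebrafish (*Danio rerio*) embryos collected at 1 day post-fertilisation, in 3 libraries labelled as *rapgef1b* knockdown and 3 labelled as wild-type control. The 10 members were taken by name: *ascl1a*, *ascl1b*, *neurog1*, *neurod1*, *neurod4*, *atoh1a*, *olig2*, *olig3*, *ptf1a* and *insm1a*. All 10 had a row among the 47445 rows of the deposited count table. Of these, 9 passed the filter on low counts and were tested with 15607 genes in all, and *atoh1a* was at 0 in every library. *rapgef1b* encodes an exchange factor for Rap GTPases, and the study's title names neural crest and presomitic mesoderm as its subjects. The labels do not give the knockdown reagent, the number of embryos per library, the strain, or whether control embryos received a control reagent. Nothing in them says that the replicates came from separate clutches, so p-values measure the spread between these libraries, which may be technical.

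Proneural genes encode transcription factors that push dividing neural progenitors towards becoming neurons. Most belong to the basic helix-loop-helix (bHLH) class, which binds DNA as dimers with broadly expressed E proteins, while Id proteins block that pairing. A cell that expresses them also puts Delta ligands on its surface, and Notch signalling in its neighbours switches on Hes and Her repressors that hold the proneural genes down there. Of the members, *insm1a* is no bHLH gene: it encodes a zinc-finger repressor that acts downstream of proneural factors in neurons and endocrine cells.

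Library totals ran from 2118413 to 2232625 counts in the libraries labelled knockdown and from 2042600 to 3809123 in controls, so several members rested on fewer than 100 counts per library. *rapgef1b* itself showed no fall under the knockdown label, at 129 ± 20.5 CPM in the libraries so labelled, against 109.5 ± 1.46 CPM in controls (SD, n = 3 each). CPM is the count divided by the TMM-scaled library total and put on a common scale. The log2 estimate for *rapgef1b* was 0.24 (standard error, SE, 0.14, adjusted p = 0.386 by edgeR's quasi-likelihood method), so directions below belong to the labels. On the first principal component of all tested genes, which held 41.8% of the variance, the libraries labelled knockdown lay at -19.3, -5.48 and -46.0 for replicates 1, 2 and 3, and controls from 22.7 to 25.2. Replicate 2 labelled knockdown was thus the nearest to the controls.

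Every tested member had a lower estimate in the libraries labelled knockdown, by 14.4% for *neurod1* up to 62.5% for *ptf1a*. Only *ascl1a* passed the threshold, an edgeR p under 0.05 after Benjamini-Hochberg adjustment over all 15607 genes, which 4.29% of all tested genes passed in either direction. Called lower was thus 1 of 9 tested members, where 2.27% of all tested genes were called lower, and 0 of 9 were called higher, against 2.01% of all tested genes. The median log2 fold change of the 9 was -0.46, against 0.011 for all tested genes, of which 48.8% had an estimate below 0. In 5 of the 9, all 3 libraries labelled knockdown lay below all 3 controls, as did 11.9% of all tested genes. An unadjusted p under 0.05 was reached by 7 of the 9 and by 18.1% of all tested genes. *ptf1a* entered the test through its control libraries alone, so a gene at its level could be tested only by being higher in controls. Over the other 8 the median was -0.44, with 4 whose groups did not overlap and 6 with an unadjusted p under 0.05. In RNA from embryos rather than sorted cells, fewer cells of a type and less RNA per cell cannot be told apart.

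**Figure D1:**
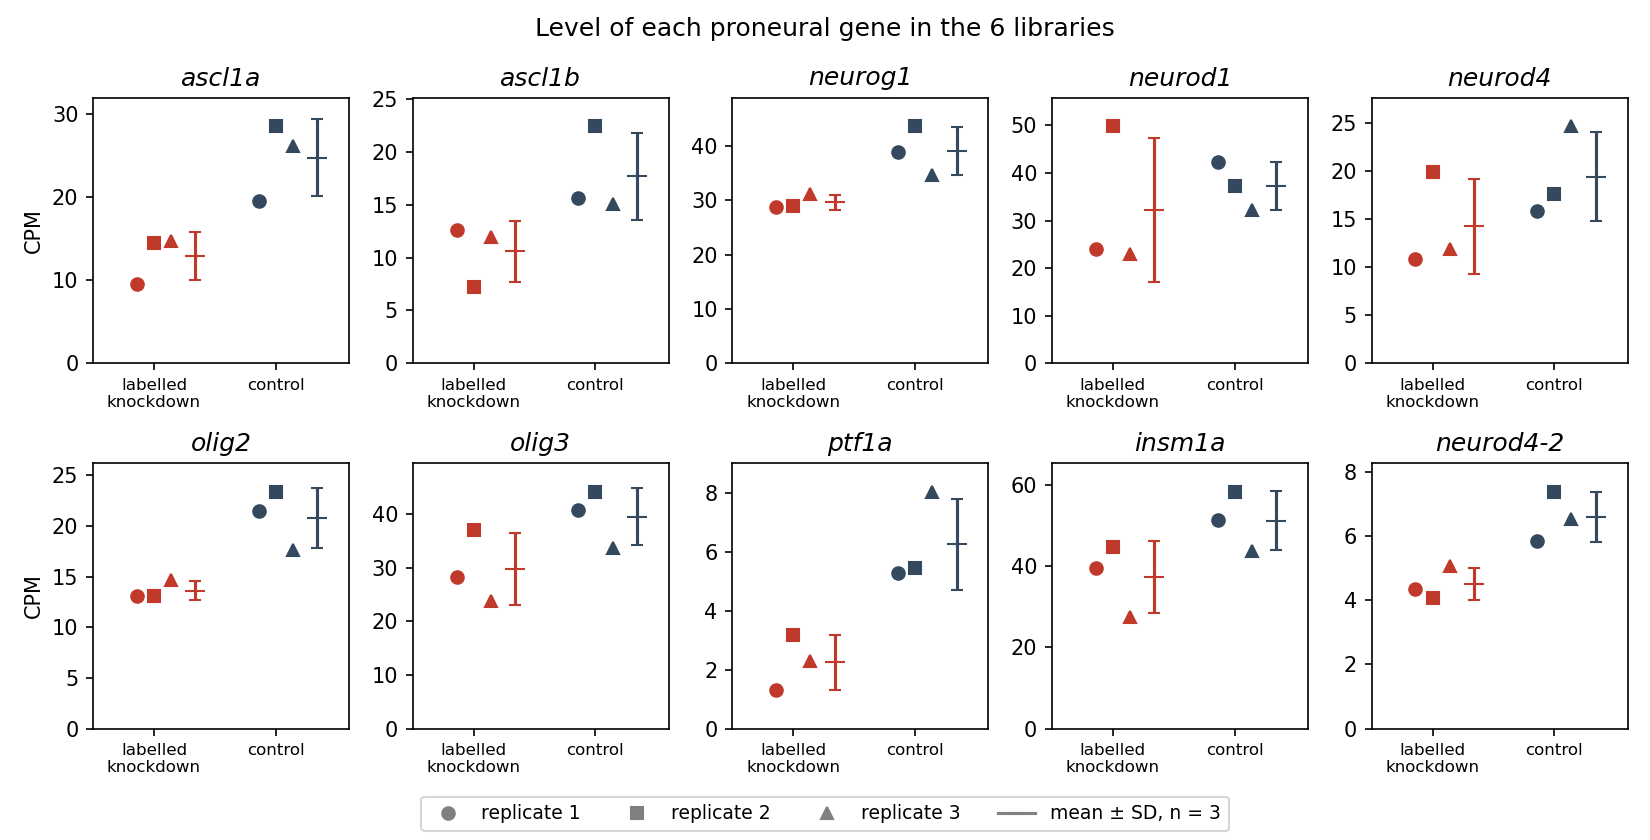
Level in CPM (vertical axes, each from 0) of each tested member and of the second *neurod4* row in the 3 libraries labelled knockdown (left, red) and the 3 control libraries (right, dark blue). Symbols give the replicate number and bars the mean ± SD (n = 3). *ascl1a*, *ascl1b*, *neurog1*, *olig2*, *ptf1a* and *neurod4-2* show groups that do not overlap, and replicate 2 labelled knockdown is the highest red point in *neurod1*, *neurod4*, *olig3*, *insm1a* and *ptf1a*. Both *ptf1a* and *neurod4-2* entered the test through the controls.

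The achaete-scute pair comes first among the genes that start neurogenesis. *ascl1a* acts in progenitors of the forebrain, hindbrain and retina. It had 9.58, 14.5 and 14.7 CPM in replicates 1, 2 and 3 labelled knockdown, against 19.6, 28.5 and 26.1 CPM in control replicates 1, 2 and 3. All values of the libraries labelled knockdown lay below all control values, from 22 to 32 counts per library labelled knockdown and from 52 to 89 per control library. *ascl1a* fell to 52.6% of the control level in the fit, a log2 change of -0.93 (SE 0.24, edgeR adjusted p = 0.0295). The call did not hold with DESeq2, at an adjusted p of 0.0511, and it was lost without control replicate 2, control replicate 3 or knockdown replicate 1, at adjusted edgeR p-values of 0.184, 0.0891 and 0.0981. With all libraries thinned to the smallest total its log2 fold change was -0.74 and the adjusted p 0.116. Over its 18 alternatives the adjusted p ran from 0.00471 to 0.184.

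*ascl1b*, its paralog, is known in zebrafish for the first endocrine precursors of the pancreas as well as for the brain. It had 12.6, 7.24 and 11.9 CPM in replicates 1, 2 and 3 labelled knockdown, against 15.6, 22.4 and 15.09 CPM in controls. The groups did not overlap, and here replicate 2 labelled knockdown was the lowest of its group rather than the highest. On the log2 scale the difference was -0.75 (SE 0.26, 95% CI -1.30 to -0.20, edgeR adjusted p = 0.120). The unadjusted p was 0.0104, which ranked 1352 among all tested genes. The 95% CI, a confidence interval, covers the spread between 3 libraries per group, and whether the paralogs differed from each other was not tested.

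*neurog1* is the neurogenin gene needed for cranial sensory ganglia and the Rohon-Beard sensory neurons of the spinal cord. It varied little between the libraries labelled knockdown, with an SD of 1.35 CPM, against 4.45 CPM in controls. Its levels were 28.7, 29.0 and 31.2 CPM in replicates 1, 2 and 3 labelled knockdown, against 38.9, 43.6 and 34.7 CPM in controls. The groups did not overlap, with 3.51 CPM between the highest library labelled knockdown and the lowest control. The log2 estimate was -0.41 (SE 0.17, 95% CI -0.77 to -0.048, edgeR adjusted p = 0.206). Leaving out any library kept its estimate between -0.48 and -0.32.

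Next come the genes that act after commitment to a neuronal fate. *neurod1*, a differentiation factor of young neurons and endocrine cells, had 23.9, 49.8 and 22.9 CPM in replicates 1, 2 and 3 labelled knockdown, against 42.4, 37.2 and 32.2 CPM in controls. Replicate 2 labelled knockdown held 110 counts and was the highest of all 6 libraries, while replicates 1 and 3 lay below every control. The SD was 15.23 CPM in the libraries labelled knockdown, against 5.09 CPM in controls. The log2 fold change of *neurod1* was -0.22 (SE 0.25, 95% CI -0.75 to 0.30, edgeR adjusted p = 0.693). Without knockdown replicate 2 it was -0.69, with an adjusted edgeR p of 0.0543. Without knockdown replicate 3 it was -0.040, and over its 18 alternatives the adjusted p ran from 0.0543 to 0.966.

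*neurod4*, a relative of *neurod1* in differentiating neurons, also had its highest knockdown value in replicate 2. It had 10.9, 19.9 and 11.9 CPM in replicates 1, 2 and 3 labelled knockdown, against 15.9, 17.6 and 24.6 CPM in controls. Replicate 2 labelled knockdown lay among the controls, and the other 2 below them. On the log2 scale the difference was -0.41 (SE 0.26, edgeR adjusted p = 0.428), changing to -0.74 when knockdown replicate 2 was left out and to -0.24 when control replicate 3 was. The table holds a second row of this name with the suffix -2, and the sources used here do not say how reads were shared between such rows. *neurod4-2* had 4.35, 4.08 and 5.04 CPM in replicates 1, 2 and 3 labelled knockdown, against 5.82, 7.37 and 6.54 CPM in controls, from 9 to 23 counts per library. In this second row the groups did not overlap and replicate 2 labelled knockdown was the lowest. Only 1 library labelled knockdown reached the level of the filter on low counts, against 3 controls. *neurod4-2* thus entered the test through the controls, and a row at its level could be tested only by being higher there. Its log2 fold change was -0.54 (SE 0.35, edgeR adjusted p = 0.442). Summing both rows before the fit gave -0.44 for *neurod4*, with an adjusted edgeR p of 0.271.

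*insm1a*, which encodes the zinc-finger repressor, had 39.6, 44.8 and 27.5 CPM in replicates 1, 2 and 3 labelled knockdown, against 51.4, 58.3 and 43.7 CPM in controls. The one overlap was between replicate 2 labelled knockdown and control replicate 3, and leaving out either library ended it. The log2 estimate was -0.46 (SE 0.18, 95% CI -0.85 to -0.078, edgeR adjusted p = 0.172). Leaving out knockdown replicate 2 gave -0.62, and leaving out knockdown replicate 3 gave -0.29.

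**Figure D2:**
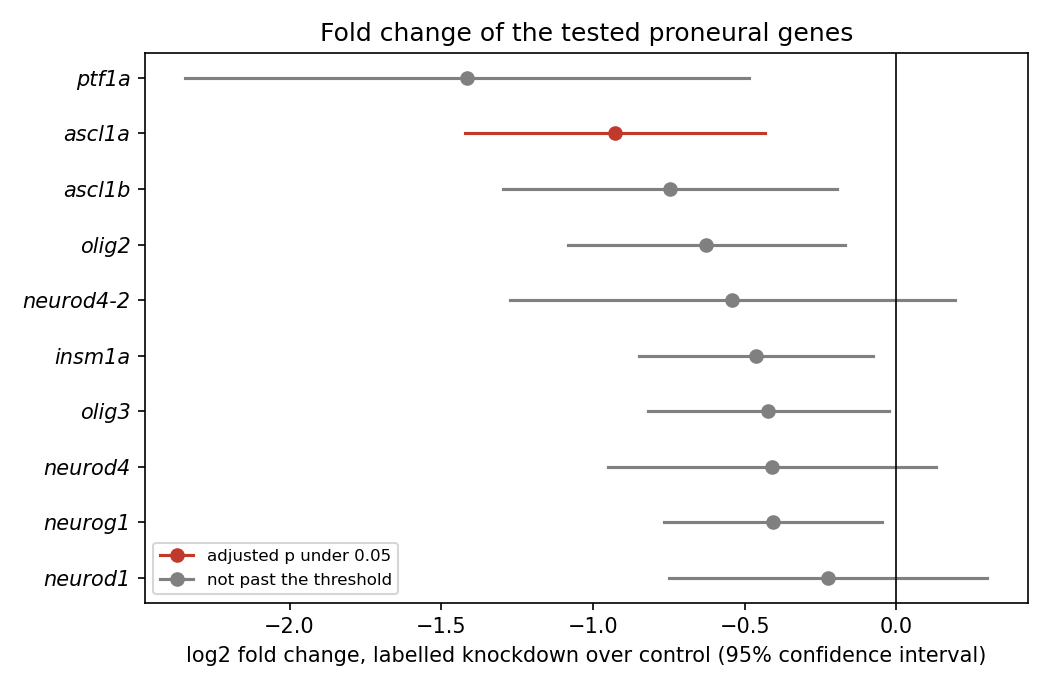
Log2 fold change (horizontal axis, libraries labelled knockdown over controls) of each tested member and of *neurod4-2*, with its 95% confidence interval from edgeR's quasi-likelihood fit (n = 3 per group), ordered by size. Every estimate lies below 0, from -1.41 for *ptf1a* to -0.22 for *neurod1*, and *ascl1a* (red) is the only gene past the adjusted threshold. *ptf1a* and *neurod4-2* could be tested only through their level in controls.

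The remaining members mark domains of the neural tube. *olig2* is expressed in the ventral domain that gives motor neurons and then oligodendrocytes. It had 13.1, 13.1 and 14.7 CPM in replicates 1, 2 and 3 labelled knockdown, against 21.4, 23.4 and 17.6 CPM in controls. All 3 libraries labelled knockdown were close together and below every control. On the log2 scale the difference was -0.63 (SE 0.22, 95% CI -1.08 to -0.17, edgeR adjusted p = 0.114). Leaving out any library kept the estimate of *olig2* between -0.72 and -0.54.

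*olig3*, known from the mouse as a gene of dorsal progenitors in the hindbrain and spinal cord, had 28.3, 37.1 and 23.8 CPM in replicates 1, 2 and 3 labelled knockdown, against 40.8, 44.2 and 33.7 CPM in controls. Again replicate 2 labelled knockdown lay above control replicate 3, and leaving out either library ended the overlap. The log2 estimate was -0.42 (SE 0.19, edgeR adjusted p = 0.238), and without knockdown replicate 2 it was -0.62 with an adjusted p of 0.0778.

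*ptf1a*, which specifies inhibitory neurons of the cerebellum, retina and dorsal hindbrain and also the exocrine pancreas, had the lowest counts of the tested members. It had 1.31, 3.17 and 2.29 CPM in replicates 1, 2 and 3 labelled knockdown, against 5.29, 5.45 and 8.05 CPM in controls. These are 3, 7 and 5 counts in the libraries labelled knockdown, against 20, 17 and 16 in controls, and no library labelled knockdown reached the filter's level of 4.504 CPM of the unscaled library. The groups did not overlap. On the log2 scale the difference was -1.41 (SE 0.45, 95% CI -2.34 to -0.49, edgeR adjusted p = 0.0802), over its alternatives from 0.0648 to 0.220. DESeq2 gave it no adjusted p.

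*atoh1a*, the atonal gene of the rhombic lip and of sensory hair cells, was at 0 in all 6 libraries, and so was its second row *atoh1a-2*. Of the 193 genes with a row on the lists used here, 14 were at 0 in every library, and all 14 have a second row that was at 0 too. Among these are *gata1a* of red blood cells and *ckma* of muscle, which embryos of this age are known to express, so a row at 0 gives no level for *atoh1a*.

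**Figure D3:**
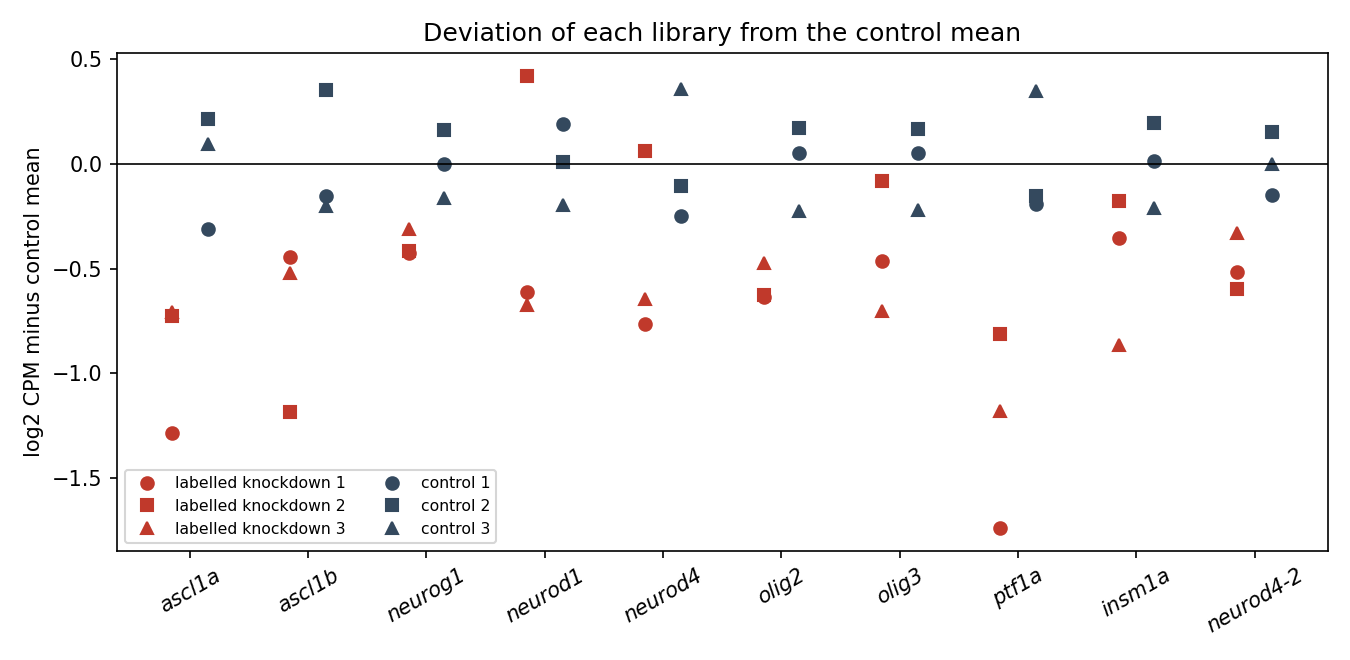
Log2 CPM of each library minus the control mean of the same gene (vertical axis, prior count 2), for the tested members and *neurod4-2*. Red symbols are the libraries labelled knockdown and dark blue symbols the controls, with shapes for replicates 1, 2 and 3. Red squares, replicate 2 labelled knockdown, lie above 0 for *neurod1* and *neurod4*, and red circles and triangles lie below 0 for every gene.

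The 9 tested members were not at the same distance from the controls in each of the libraries labelled knockdown. Their median deviation from the control mean was -0.61, -0.42 and -0.67 on the log2 CPM scale in replicates 1, 2 and 3, where that of all tested genes was 0.012, 0.010 and 0.0092. In replicates 1 and 3 all 9 lay below the control mean, and in replicate 2 this held for 7. Replicate 2 was the highest of the libraries labelled knockdown for 5 members (*neurod1*, *neurod4*, *olig3*, *ptf1a* and *insm1a*) and the lowest for 1, *ascl1b*. Each of the 4 overlaps between groups involved that library: without it, all 9 members had both remaining libraries labelled knockdown below all controls, as did 19.1% of all tested genes. Without control replicate 3, the overlaps of *insm1a* and *olig3* ended too and 7 of the 9 lay below, as did 17.0% of all tested genes. Leaving out any other library kept the count at 5 of the 9, beside 15.4% to 18% of all tested genes. These counts include *ptf1a*, which entered the test through the controls, and knockdown replicate 2 was singled out from these same data. Leaving out knockdown replicate 2 raised no further member past the threshold, which 3.14% of genes then passed in the lower direction, and *ascl1a* was called at an adjusted edgeR p of 0.0345. Summed over the members, levels were 168, 219 and 161 CPM in replicates 1, 2 and 3 labelled knockdown, against 251, 281 and 236 CPM in control replicates 1, 2 and 3.

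Other genes of the same machinery were described from lists drawn up from general knowledge, but with earlier results of these data known. Their counts are thus descriptions, to be read beside all tested genes, of which 2.27% were called lower and 2.01% higher. Of 15 further bHLH genes of neural tissue, 6 were tested, 5 of them with lower estimates, and their median log2 fold change was -0.74. Of the 6, *neurod6b* entered the test through the controls and *olig4* through the libraries labelled knockdown, since fewer than 2 libraries of the other group reached the filter's level; at that group's level in all libraries neither would have been tested. The other 4 all had lower estimates. *tal2*, a gene of midbrain inhibitory neurons in the mouse, was the only one called. *tal2* fell to 10.01, 7.70 and 6.42 CPM in replicates 1, 2 and 3 labelled knockdown, against 15.4, 19.6 and 13.1 CPM in controls, a log2 change of -1.0005 (SE 0.27, edgeR adjusted p = 0.0382). That call was lost in 7 of 18 alternatives, with adjusted p-values up to 0.228 without control replicate 2. *nhlh2*, the list's gene of highest CPM, had 21.5 ± 1.35 CPM in the libraries labelled knockdown, against 31.2 ± 0.53 CPM in controls (SD, n = 3 each), with an edgeR adjusted p of 0.105, and *atoh1c* was at 0 in every library.

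The dimer partners gave no call. Of 9 E protein and Id genes, all tested, 5 had lower and 4 higher estimates, with a median of -0.090, none with an unadjusted p under 0.05. *id2b*, which had the highest estimate, entered the test through the libraries labelled knockdown. The other 8 had 5 lower and 3 higher estimates, with a median of -0.12. *id1*, an inhibitor of bHLH pairing and the gene of highest mean CPM on that list, had 276 ± 24.2 CPM in the libraries labelled knockdown, against 272 ± 39.1 CPM in controls (SD, n = 3 each). The log2 estimate for *id1* was 0.019 (SE 0.14, edgeR adjusted p = 0.964).

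The Notch genes went both ways. Of 13 ligands, receptors and helpers, all tested, 7 had lower and 6 higher estimates, with a median of -0.11 and 1 call. *dlc* entered the test through the libraries labelled knockdown alone, so a gene at its control level could be tested only by being higher there. Over the other 12, 7 estimates were lower and 5 higher, with a median of -0.13. *dlb*, a Delta ligand of newborn neurons, fell to 67.5, 73.8 and 85.8 CPM in replicates 1, 2 and 3 labelled knockdown, against 107, 114 and 109.6 CPM in controls. The groups did not overlap, and the log2 fold change of *dlb* was -0.54 (SE 0.14, edgeR adjusted p = 0.0295). The call of *dlb* was lost in 5 of 18 alternatives, at up to 0.159 without control replicate 2. Of 19 Hes and Her genes, 16 had a row and 11 were tested, with 10 lower estimates, a median of -0.41 and 1 call. That median became -0.69 when knockdown replicate 1 was left out and -0.15 when control replicate 2 was. It was -0.20 over the 9 genes other than *her8.2* and *her15.1*, which entered the test through the controls. *her13*, a repressor gene of this family, fell to 12.6, 16.3 and 10.5 CPM in replicates 1, 2 and 3 labelled knockdown, against 30.7, 30.5 and 26.1 CPM in controls. Its log2 fold change was -1.15 (SE 0.22, edgeR adjusted p = 0.00354), and *her13* kept its call in all 18 alternatives.

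Of 24 genes of early neurons, listed from general knowledge as downstream of the members, 18 were tested. Whether they depend on the members was not tested. Their median was -0.40 on the log2 scale, with 16 lower estimates, 4 called lower and 0 called higher. Of all tested genes, 48.8% had an estimate below 0, 2.27% were called lower and 2.01% higher. *sox11b*, a SoxC factor of young neurons, fell to 236, 265 and 231 CPM in replicates 1, 2 and 3 labelled knockdown, against 439, 430.5 and 426 CPM in controls. These libraries did not overlap and were tight within each group, and the log2 fold change of *sox11b* was -0.82 (SE 0.13, edgeR adjusted p = 0.000858). *scrt1a*, a Scratch-family zinc-finger gene of neurons, fell to 5.66, 6.34 and 2.75 CPM in the libraries labelled knockdown, against 13.2, 13.1 and 16.6 CPM in controls. Its log2 fold change was -1.51 (SE 0.31, edgeR adjusted p = 0.00788). Both genes kept their calls in every alternative that gave a value. The other 2 called were *myt1b*, a zinc-finger gene of neurons, at 99.7 ± 24.4 CPM in the libraries labelled knockdown, against 153 ± 3.84 CPM in controls, and *tubb5*, a tubulin gene, at 192 ± 47.5 CPM in the libraries labelled knockdown, against 291 ± 24.8 CPM in controls (SD, n = 3 each). Leaving out control replicate 1 left 2 genes of this list called lower, and leaving out knockdown replicate 2 gave 8. Over all tested genes, calls lower were 154 and 509 in these fits, against 355 with all libraries.

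Markers of dividing neural progenitors had mostly lower estimates beside the proneural genes. Over 14 tested of 16 the median log2 fold change was -0.40, with 12 lower estimates. Of the 14, 3 were called lower and 0 higher, where 2.27% of all tested genes were called lower and 2.01% higher. On this list 2 genes, *sox1a* and *sox21a*, were at 0 in every library. The list's summed level ran from 1072 to 1220 CPM in the libraries labelled knockdown, against 1418 to 1537 CPM in controls. *sox3*, a SoxB1 gene that keeps progenitors dividing, fell to 148, 170 and 154 CPM in replicates 1, 2 and 3 labelled knockdown, against 247, 249 and 235 CPM in controls, a log2 change of -0.63 (edgeR adjusted p = 0.00677). *gfap*, a radial glia gene, fell to 83.6, 99.2 and 110.5 CPM in the libraries labelled knockdown, against 163, 147 and 144 CPM in controls, a log2 change of -0.63 (edgeR adjusted p = 0.0105). Leaving out control replicate 2 ended the call of *sox3*, at 0.0618, and leaving out control replicate 1 or 2 ended that of *gfap*, at 0.0909 and 0.0556. Leaving out control replicate 2 left 0 progenitor genes called lower, and leaving out knockdown replicate 2 gave 6. Over all tested genes, calls lower were 122 and 509 in these fits, against 355 with all libraries. The part of the progenitor level in the proneural values was not tested.

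**Figure D4:**
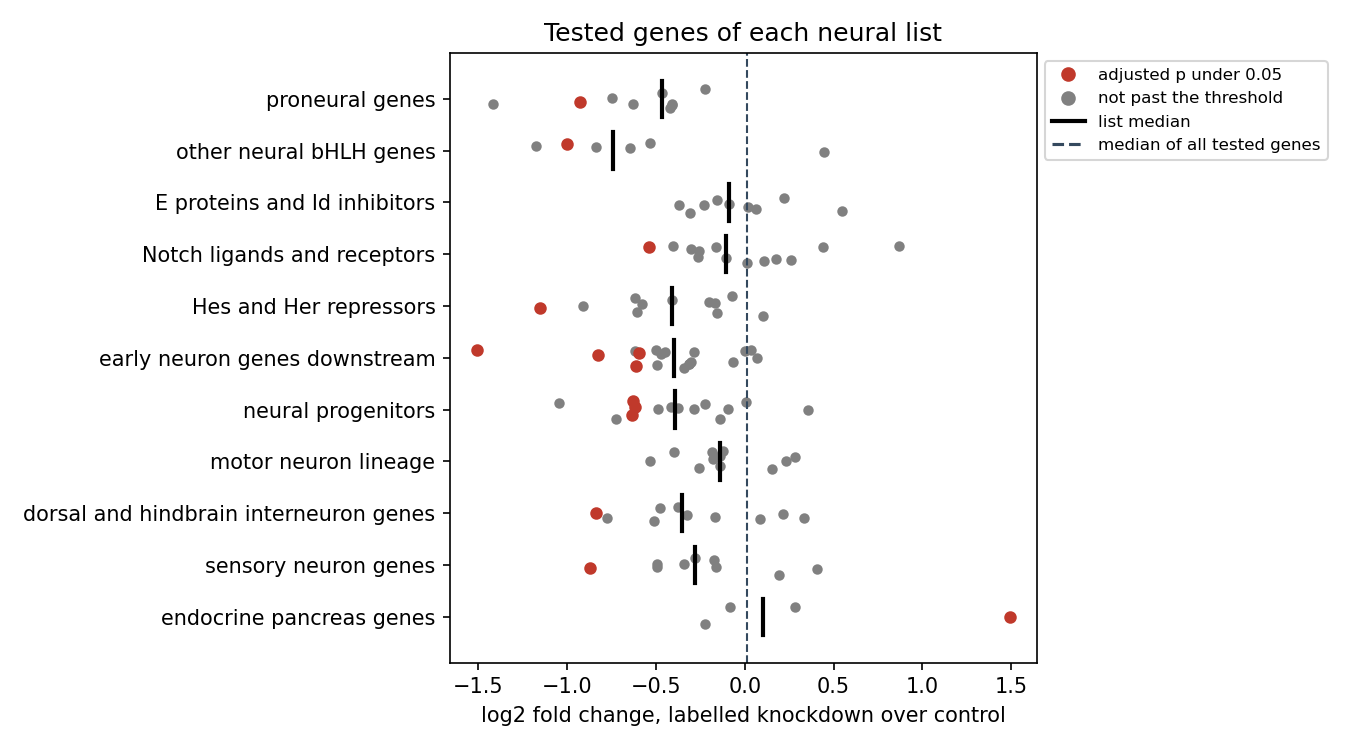
Log2 fold change (horizontal axis, libraries labelled knockdown over controls) of each tested gene on the neural lists and on the list of endocrine pancreas genes, 1 row per list. Red points are genes called at an adjusted p under 0.05, black bars are list medians and the dashed line is the median of all tested genes, 0.011. The proneural, other bHLH, Hes and Her, early neuron and progenitor medians lie between -0.74 and -0.40. That of the Hes and Her genes was -0.15 without control replicate 2, and -0.20 without the 2 genes that entered through the controls. The E protein and Id, Notch and motor neuron medians lie between -0.14 and -0.090. Those of the interneuron, sensory neuron and endocrine lists are -0.35, -0.28 and 0.10.

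Lists for cell types linked to single members gave 2 lower calls and 1 higher among 33 genes tested. By comparison, 2.27% of all tested genes were called lower and 2.01% higher. Whether a listed gene depends on a member was not tested. For the motor neuron lineage of *olig2*, 11 of 13 genes were tested, 8 with lower and 3 with higher estimates, a median of -0.14 and no call or unadjusted p under 0.05. *nkx6.2*, a ventral progenitor gene and the gene of highest mean CPM on that list, had 35.1 ± 2.86 CPM in the libraries labelled knockdown, against 38.3 ± 5.38 CPM in controls (SD, n = 3 each), with an adjusted edgeR p of 0.728. For dorsal and hindbrain interneurons, 10 of 16 were tested, with a median of -0.35 and 1 call. *barhl1a* entered the test through the libraries labelled knockdown, and the median over the other 9 was -0.38. *dbx1a*, a homeobox gene of interneuron progenitors, fell to 19.6, 31.7 and 22.9 CPM in replicates 1, 2 and 3 labelled knockdown, against 50.04, 43.0 and 38.2 CPM in controls, a log2 change of -0.84 (edgeR adjusted p = 0.0181). *dbx1a* lost its call without control replicate 1, control replicate 2 or knockdown replicate 1, at 0.133, 0.0734 and 0.0607.

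For sensory neurons, 9 of 10 genes were tested, with a median of -0.28 and 1 call, lower, where 2.27% of all tested genes were called lower. Leaving out knockdown replicate 1 brought the median to -0.55. Leaving out knockdown replicate 3 brought it to 0.0090, and 5 of the 10 genes then tested had lower estimates. *phox2bb*, a gene of hindbrain motor, visceral sensory and autonomic neurons, fell to 14.8, 18.1 and 14.7 CPM in the libraries labelled knockdown, against 30.4, 28.2 and 28.2 CPM in controls, a log2 change of -0.87 (edgeR adjusted p = 0.0153). The call of *phox2bb* was lost in 3 fits without a library, at up to 0.0935 without control replicate 1. Of 10 endocrine pancreas genes, 4 were tested, *neurod1* among them, with 2 lower and 2 higher estimates and a median of 0.10. *rfx6*, a regulator of endocrine cell fate, rose to 12.2, 9.06 and 11.9 CPM in replicates 1, 2 and 3 labelled knockdown, against 3.71, 5.45 and 2.01 CPM in controls. Its log2 fold change was 1.49 (SE 0.35, edgeR adjusted p = 0.0166), from 4 to 17 counts per control library. Only 1 control library reached the filter's level, so *rfx6* entered the test through the libraries labelled knockdown, and a gene at its control level could be tested only by being higher there. The other 3 tested endocrine genes had a median of -0.082 and no call. *rfx6* lost its call without control replicate 1 or 3 or knockdown replicate 1 or 3, at 0.0909, 0.0629, 0.0508 and 0.0539.

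Markers of other tissues of the embryo differed between the labels too. Beside their calls stand those of all tested genes, 2.27% lower and 2.01% higher. Of the muscle markers 4 of 7 tested were called lower, and their summed level was 1644 to 2433 CPM in the libraries labelled knockdown, against 2771 to 3542 CPM in controls, with *ckma* and *actn3a* at 0. Of the red blood cell markers 3 of 4 tested were called lower, with sums of 110 to 187 CPM in the libraries labelled knockdown, against 273 to 339 CPM in controls and *gata1a* at 0. All 4 tested of 8 lens markers were called lower, with sums of 6.42 to 25.8 CPM in the libraries labelled knockdown, against 65.9 to 77.9 CPM in controls. Of these 4, *cryba4*, *cryba2a* and *mipa* entered the test through the controls, so genes at their level could be tested only by being higher in controls. When every library had to hold at least 10 counts of a gene, 0 lens markers were tested. *hbae1.3*, 1 of the 3 red cell genes called, entered in the same way. Presomitic mesoderm markers went the other way, with 3 of 5 tested called higher and sums of 121 to 216 CPM in the libraries labelled knockdown, against 62.2 to 86.0 CPM in controls. All 6 endothelium markers had lower estimates, with a median of -0.32, sums of 151 to 214 CPM in the libraries labelled knockdown, against 223 to 237 CPM in controls, no call and 2 with an unadjusted p under 0.05. Of 5 epidermis markers tested, 4 had higher estimates, with a median of 0.099 and no call. Without control replicate 1 that median was -0.031, with 3 of the 5 lower, and without control replicate 3 it was 0.34. *krt5* and *krt8*, the 2 with an unadjusted edgeR p under 0.05, lay above all controls in every library labelled knockdown. Of all tested genes, 18.1% had such a p, and 23.2% had groups that did not overlap, in either direction. The part of these other tissues in the proneural values was not tested.

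Over the 6 libraries, the genes closest to the mean profile of the tested members were *si:dkey-182g1.2*, *postnb* and *ctsla*, out of 14862 genes with a mean of at least 5 CPM outside the members. The measure was the root mean square difference between centred log2 CPM values, and it came to 0.048, 0.053 and 0.053. *ctsla*, a cathepsin L gene, had 497, 618 and 528 CPM in replicates 1, 2 and 3 labelled knockdown, against 792, 816 and 807 CPM in controls. *postnb*, a periostin gene of the extracellular matrix, had 239, 297 and 239 CPM in the libraries labelled knockdown, against 357, 411 and 345 CPM in controls. Among the members themselves, *olig2* lay nearest to their mean profile, at 0.16, and *ptf1a* farthest, at 0.42. Placed among the 14862 genes, *olig2* would rank 317 and *ptf1a* 8105, although each member is part of that mean. The 3 closest genes were the smallest differences out of 14862, and *postnb* and *ctsla* had more counts than any member. Their closeness thus does not show whether the members moved together.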

How the data were processed

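Libraries were made from total RNA after removal of ribosomal RNA and read in 100-base pairs, per the labels' protocols. The authors deposited raw read counts per gene name for 6 libraries. The submitters' processing notes name FastQC, cutadapt, STAR, DESeq2 and GRCz11. The counting tool, annotation, strand setting and treatment of reads that map to several places are not given in the sources used here, so no coordinates are given and overlapping genes cannot be separated. A second row with the suffix -2 exists for 5998 names and was tested as its own row. Columns were matched to samples by library name. The description of the third control repeats replicate number 2; its title gives 3, which was used.

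Counts were filtered with filterByExpr (minimum count 10, minimum total 15), scaled with TMM factors and tested with edgeR 4.0.16 in R 4.3.3 (glmQLFit with robust=TRUE, glmQLFTest; all 6 libraries, group as the only term), with Benjamini-Hochberg adjustment over the genes tested. The standard error is the size of the log2 fold change divided by the square root of F. Alternatives used DESeq2 1.42.0, limma 3.58.1 (voom), other scaling, filters and library sizes, summed copy rows, thinning to the smallest library, a replicate block, and leaving out each library. The test was checked on counts simulated from a fit to these data. Such counts follow the model by design, so the check cannot show how well the model suits these libraries. The members and lists were chosen with earlier results of these data known, so their counts are descriptions. Beside the members, *rapgef1b* and its paralog *rapgef1a*, up to 2 called genes per direction and list with the largest change were named, or the one of highest CPM where none was called, and the 3 genes closest in profile. Further genes named to complete a short count were chosen after their values were seen. Figures used matplotlib 3.10.9.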

Additional observations from a re-analysis of the deposited data

How the results depend on the processing

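The direction of the 8 tested members that passed the filter in both groups held under every alternative that gave a value. *ptf1a* was also lower wherever it had a value, but a gene at its level could be tested only by being higher in controls. With no filter on low counts *ptf1a* was at -1.44. *ascl1a* was the one member called, and the number of members called lower was 0 with DESeq2 (*ascl1a* at -0.94 on the log2 scale, adjusted p 0.0511) and 0 after thinning (-0.74). Without 1 library it ran from 0 to 1, with *ascl1a* from -1.09 to -0.75. The count of members called higher was 0 under each alternative. Thinning and leaving out a library leave fewer counts or libraries. DESeq2 was given the same libraries and genes but gave some genes, *ptf1a* among them, no adjusted p. The cause of the lost call with DESeq2 was not tested. All tested genes called numbered 669, and 1010 with no filter on low counts, which tested 31075 rows; without 1 library they ran from 218 (control replicate 2 left out) to 914 (knockdown replicate 2 left out), and were 247, 365 and 366 without control replicate 1, control replicate 3 and knockdown replicate 3. With library size alone, 58.9% of calls were higher, against 46.9% with TMM factors. Over the further lists, 23 genes were called lower and 4 higher, and without 1 library these ran from 8 to 32 and from 2 to 5. Among the 23 were 4 muscle, 3 red blood cell and 4 lens markers, and among the 4 higher were 3 presomitic mesoderm markers. Of all tested genes, 2.27% were called lower and 2.01% higher. Both list counts hold genes that entered the test through the group where they were high. These are *cryba4*, *cryba2a*, *mipa* and *hbae1.3* among the lower and *rfx6* among the higher. *id1* changed sign, with no call, to -0.0011 with no filter, -0.096 without control replicate 3 and -0.059 without knockdown replicate 3, and reached 0.089 without control replicate 1. *krt4*, the epidermis marker of highest CPM, was at 0.033 and changed sign to -0.065 with copy rows summed, -0.031 without control replicate 1 and -0.057 without knockdown replicate 3, and reached 0.11 without control replicate 2. DESeq2 gave no adjusted p for *ptf1a*, which was also not tested after thinning or with at least 10 counts in every sample. Deviations of same-numbered libraries had correlations near 0 (-0.014, 0.066 and 0.069), and those of differently numbered libraries ran from -0.098 to 0.052. The values for replicates 2 and 3 were the highest of all pairs, while knockdown replicate 1 did not correlate best with its own number. Pairing by number was thus not settled, and the main fit took no pairs. With the replicate block 773 genes were called, against 669 without it, and *ascl1a* stayed called at -0.94. Depth limits *ptf1a* and *neurod4-2* most, at 3 to 23 counts per library.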

Other observations

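Among named genes of other tissues, *myhz2*, a fast muscle myosin gene of a family of similar copies, had 89.0 ± 36.9 CPM in the libraries labelled knockdown, against 329 ± 6.48 CPM in controls, and *hbbe1.3*, an embryonic globin, had 42.6 ± 11.5 CPM in the libraries labelled knockdown, against 119 ± 2.82 CPM in controls (SD, n = 3 each). *tbx16*, a presomitic mesoderm regulator, had 28.9 ± 10.1 CPM in the libraries labelled knockdown, against 10.3 ± 1.70 CPM in controls (SD, n = 3 each). For *tbx16*, replicate 2 labelled knockdown was again the library nearest to the controls, at 17.7 CPM, beside 31.8 and 37.1 CPM in replicates 1 and 3. The paralog of the targeted gene, *rapgef1a*, had 34.2 ± 7.10 CPM in the libraries labelled knockdown, against 39.3 ± 3.71 CPM in controls (SD, n = 3 each), with an adjusted edgeR p of 0.638.

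Other genes named by the same rule were *pvalb1*, a muscle parvalbumin gene, at 15.7 ± 7.67 CPM in the libraries labelled knockdown, against 56.8 ± 8.49 CPM in controls, and *hbae1.3*, an embryonic globin, at 3.15 ± 1.99 CPM in the libraries labelled knockdown, against 9.79 ± 2.86 CPM in controls (SD, n = 3 each). The call of *hbae1.3* was lost in 5 of 16 alternatives. The lens genes *cryba4*, a crystallin gene, and *mipa*, a lens water channel gene that has a second row, had 2.70 ± 2.84 and 0.60 ± 1.05 CPM in the libraries labelled knockdown, against 14.7 ± 1.23 and 6.29 ± 1.32 CPM in controls. *msgn1*, a presomitic mesoderm regulator, had 13.5, 16.3 and 36.2 CPM in replicates 1, 2 and 3 labelled knockdown, against 8.74, 5.45 and 8.05 CPM in controls, and lost its call in 4 of 18 alternatives. *fli1a*, an endothelial gene, had 59.0 ± 8.18 CPM in the libraries labelled knockdown, against 70.8 ± 5.95 CPM in controls (SD, n = 3 each), with an adjusted edgeR p of 0.364.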
